A study of Mus musculus with 15 samples.

Results

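The genes described here are 9 oncofetal genes of the let-7 axis, *Lin28a*, *Lin28b*, *Hmga1*, *Hmga2*, *Igf2bp1*, *Igf2bp2*, *Igf2bp3*, *Dis3l2* and *Arid3b*, taken by name from the 23329 genes with a read count. They were measured by mRNA sequencing of 15 mouse tumors, 1 library per mouse. The lymphomas came from cervical lymph nodes of C57BL/6 mice, with 4 *EμMyc* tumors (onset at 13 to 19 weeks) and 3 *EμMyc/Casp2-/-* tumors (8 to 12 weeks). The neuroblastomas were paraspinal thoracic tumors of Sv129/C57BL6 mice, with 4 *Th-MYCN* tumors (10 to 21 weeks) and 4 *Th-MYCN/Casp2-/-* tumors (15 to 24 weeks). The *EμMyc* transgene expresses *Myc* in B cells from the enhancer of the immunoglobulin heavy chain, and the *Th-MYCN* transgene expresses human *MYCN* in sympathetic neuroblasts from the promoter of tyrosine hydroxylase. *Casp2-/-* mice lack functional caspase-2, a cell death protease, and their controls carry the same transgene with *Casp2* intact. Tumor type, transgene, strain background and tissue differ together between lymphoma and neuroblastoma and cannot be told apart. Neither can age and genotype in the lymphomas, whose onsets did not overlap. In the *Casp2-/-* tumors age and tumor type cannot be told apart either, since lymphoma and neuroblastoma onsets did not overlap there.

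The members belong to a circuit that is active in the embryo and largely silent in adult tissue. LIN28A and LIN28B are RNA binding proteins that hold back the maturation of the let-7 microRNAs, in part by having the let-7 precursor tailed with uridines, and DIS3L2 is the exonuclease that degrades such tailed RNA. Mature let-7 in turn represses mRNAs that carry matching sites in their 3′ UTR, among them those of *Lin28a* and *Lin28b* themselves, of the chromatin architectural proteins HMGA1 and HMGA2, of the IGF2BP mRNA binding proteins and of the AT-rich interaction domain factor ARID3B. LIN28B, HMGA2 and the IGF2BP proteins return in many tumors, and LIN28B is known as an oncogene of neuroblastoma.

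The sequence that ties most of the members together is the let-7 seed, bases 2 to 8 of the microRNA. It is shown in capitals in the mature sequences that follow (RefSeq, GRCm38). Of 1679 mature mouse microRNAs in the table, 11 carry the seed GAGGUAG, from 13 hairpin genes.
let-7a: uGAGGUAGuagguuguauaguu
let-7b: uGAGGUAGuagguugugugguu
let-7d: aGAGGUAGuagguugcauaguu
let-7g: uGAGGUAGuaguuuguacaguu
miR-98: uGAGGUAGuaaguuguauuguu
The letters CTACCTC, the match to this seed on the mRNA strand, were counted in the longest annotated 3′ UTR of each gene (GENCODE vM21, GRCm38). *Lin28b*, *Hmga2* and *Igf2bp1* held 4 matches each, *Lin28a* held 2, and *Hmga1*, *Igf2bp2*, *Igf2bp3* and *Arid3b* held 1 each. No match was found in the 350 bases of the *Dis3l2* 3′ UTR. Of 21021 protein-coding genes with a 3′ UTR, 9.02% held at least 1 match and 0.0571% held 4 or more. Among genes with a 3′ UTR within 20% of the length of that of *Lin28b*, 24.2% held a match and 0.236% held as many. As many were held by 2.10% of genes of like length for *Lin28a*, 0.134% for *Hmga2* and 0.355% for *Igf2bp1*. For the single matches of *Hmga1*, *Igf2bp2*, *Igf2bp3* and *Arid3b* these shares were 8.08%, 12.0%, 13.3% and 13.4%. The matches of the members with the most reads are given with their flanks, 5′ to 3′ on the mRNA strand, with the match in capitals. A match is a stretch of letters and not a measured site.
*Lin28b*, chr10:45381020-45381044, minus strand: acccgggcgggaagtCTACCTCatg
*Lin28b*, chr10:45378646-45378670, minus strand: tatacttgttagtaaCTACCTCtga
*Lin28b*, chr10:45378474-45378498, minus strand: gtttacagcacatggCTACCTCcca
*Lin28b*, chr10:45377058-45377082, minus strand: aaatgatggcaccgaCTACCTCttc
*Igf2bp3*, chr6:49086785-49086809, minus strand: tgcatttttactcaaCTACCTCagg
*Hmga1*, chr17:27563277-27563301, plus strand: tcctctgttcacaaaCTACCTCtgg
*Arid3b*, chr9:57790359-57790383, minus strand: tatttcaataaagctCTACCTCttc
Poly(A) RNA libraries do not measure mature microRNAs: the 12 rows of let-7 hairpin genes held 45 reads over all 15 tumors together, so let-7 itself was not measured.

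The libraries held 4940464 to 17638029 reads on genes in the column used, and 3 reads, taken as the smallest detectable value, stood for 0.170 to 0.607 CPM (reads scaled to library size), which covers counting error only. Reads fell on the second strand for 48.8% to 49.3% of the strand-specific reads in every library, so the libraries did not keep strand and reads of overlapping genes on opposite strands cannot be told apart. *Casp2*, the targeted gene, was 159 ± 34.2 CPM (SD, n = 4) in *EμMyc* and 62.0 ± 12.6 (n = 3) in *EμMyc/Casp2-/-* tumors, and 100.3 ± 20.9 (n = 4) in *Th-MYCN* and 58.0 ± 16.7 (n = 4) in *Th-MYCN/Casp2-/-* tumors. No *Casp2-/-* tumor reached the lowest control tumor in the lymphomas, while the neuroblastoma ranges overlapped at 76.0 to 80.2 CPM. All 6 B cell markers were detected in both lymphoma groups and summed to 1804 to 4308 CPM there against at most 21.3 CPM in the neuroblastomas, and the 6 markers of sympathetic neuroblasts summed to 1937 to 2945 CPM in the neuroblastomas against 0.945 to 13.7 CPM in the lymphomas. Tumor EuMycC2ko215, of the *EμMyc/Casp2-/-* group and with the fewest reads, stood apart with 993 CPM of 6 T cell markers, where the other lymphomas had 5.69 to 111 CPM.

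Of the 9 members, 6 passed the filter on low counts (over 1 CPM in at least 3 tumors): *Lin28b*, *Hmga1*, *Igf2bp2*, *Igf2bp3*, *Dis3l2* and *Arid3b*. *Igf2bp2* passed with 4 tumors over 1 CPM, all of them lymphomas, so that it entered the test through the tumor type where it was higher. *Lin28b* was over 1 CPM in 8 neuroblastomas and 2 lymphomas, so the neuroblastomas, where it was higher, brought it over the filter. *Lin28a*, *Hmga2* and *Igf2bp1* did not pass. Per kilobase of exon, the *EμMyc* tumors had the highest mean level for *Igf2bp3* (5.28 ± 3.66 CPM per kilobase, SD, n = 4), then *Arid3b* (4.88 ± 4.06), *Dis3l2* (4.24 ± 1.06) and *Hmga1* (3.58 ± 1.54), 4 neighbours whose differences were smaller than their spread. The same order held in *EμMyc/Casp2-/-* tumors, with 5.24 ± 2.88, 4.95 ± 2.26, 4.76 ± 0.967 and 2.25 ± 0.0422 CPM per kilobase (n = 3). In *Th-MYCN* tumors *Dis3l2* led with 7.19 ± 0.962 CPM per kilobase, followed by *Lin28b* with 5.44 ± 1.38 and, well below both, *Arid3b* with 1.90 ± 0.521, *Igf2bp3* with 1.27 ± 1.10 and *Hmga1* with 1.12 ± 0.450. *Dis3l2* (7.67 ± 1.07) and *Lin28b* (4.88 ± 1.79) also led in *Th-MYCN/Casp2-/-* tumors. *Lin28b* thus ranked 2 of 9 in both neuroblastoma groups and 5 or 6 of 9 in the lymphomas. The place of *Hmga1* is uncertain. Its exon length was counted in full, although 55.0% of its 50-base windows also occur in the copy *Hmga1b*.

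**Figure D1:**
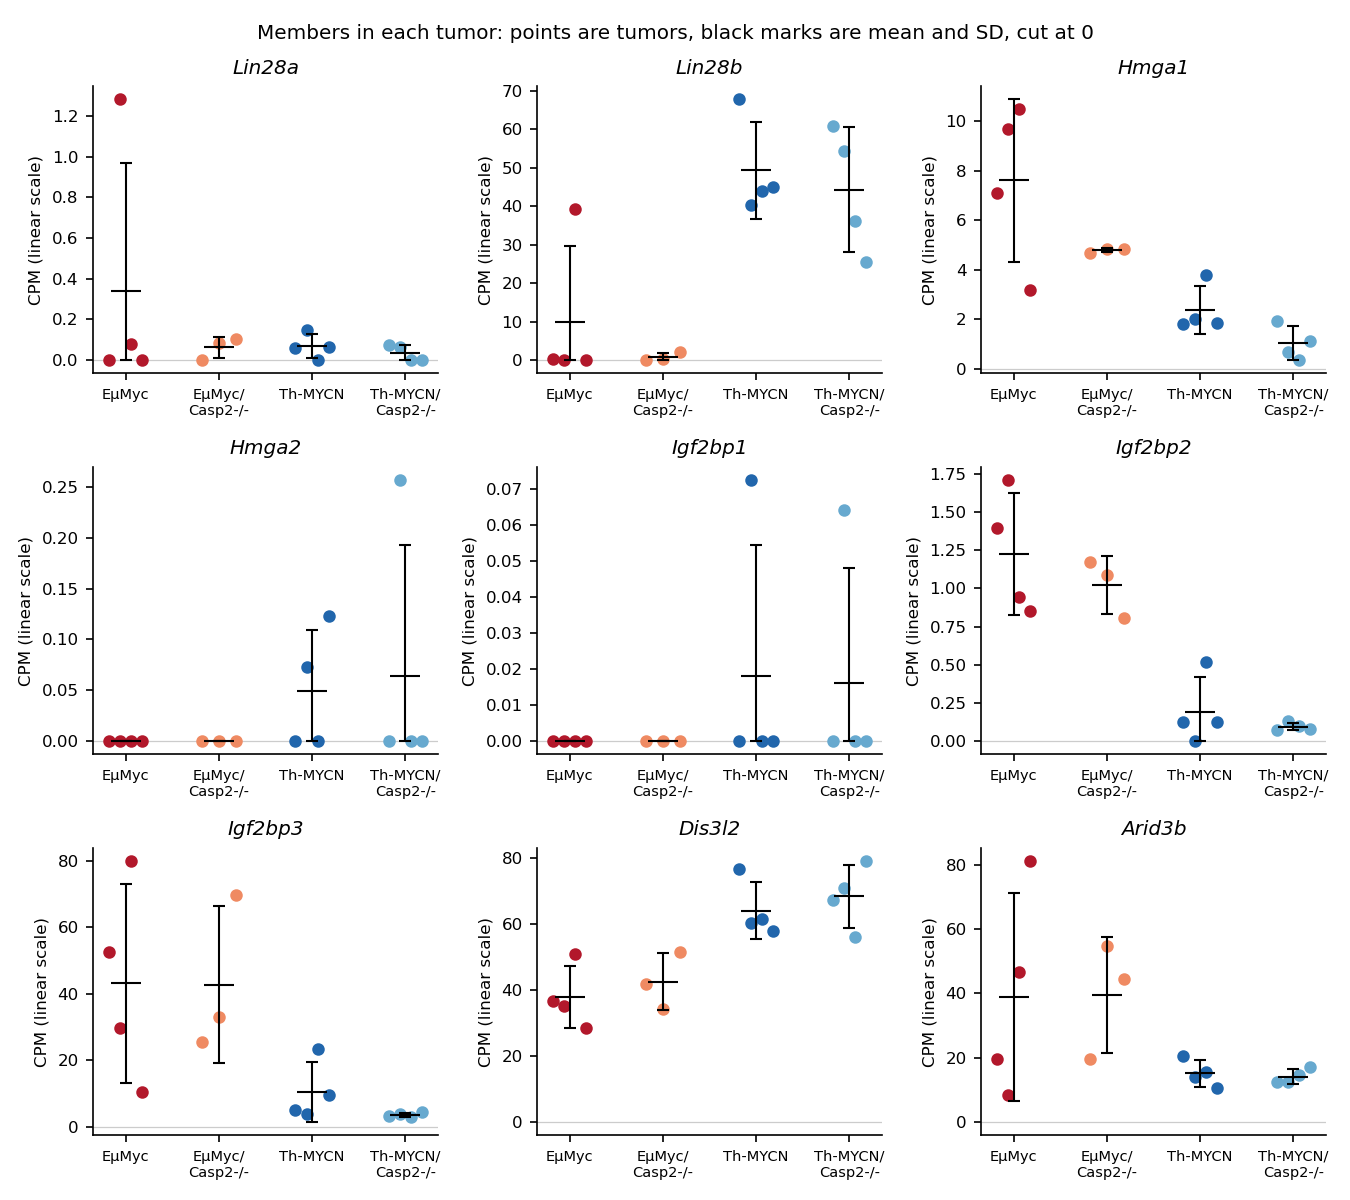
Level of the 9 members in each of the 15 tumors, in CPM on a linear axis that differs between panels. Points are tumors, black marks are the group mean and SD with the lower bar cut at 0; *Lin28b* is low in every lymphoma except EuMyc829, at 39.4 CPM, and *Igf2bp3* is highest in EuMyc829, at 79.8 CPM.

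**Figure D2:**
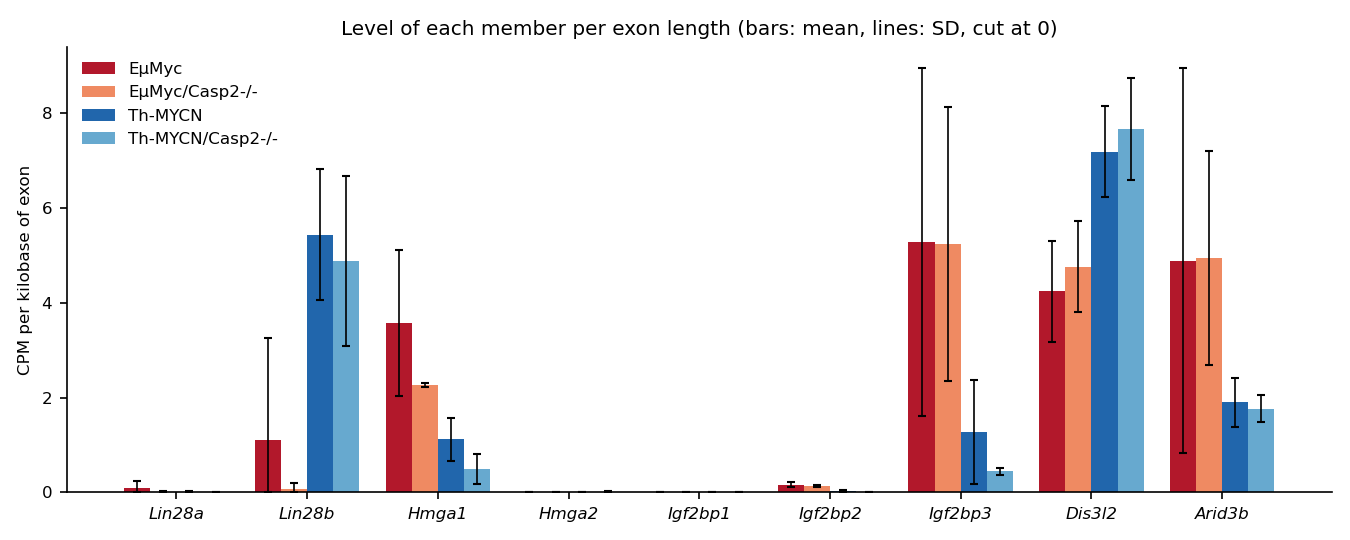
Mean level of each member per kilobase of annotated exon in the 4 groups, with bars starting at 0 and lines for the SD, cut at 0. *Dis3l2* and *Lin28b* lead in the neuroblastomas, and *Igf2bp3*, *Arid3b* and *Dis3l2* lie within one another's SD in the lymphomas.

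The first question was how the members differed between lymphoma and neuroblastoma in tumors with *Casp2* intact. In *EμMyc* against *Th-MYCN* tumors 4 of the 6 tested members were called higher and 0 lower, where a call needs an FDR under 0.05 in the likelihood ratio test of edgeR (LRT) together with a change of over 2-fold. Of all 14880 genes tested, 18.9% were called higher and 28.5% lower (47.5% in either direction). The quasi-likelihood test (QLF), which allows for error in the dispersion, also called 4 members and 46.1% of all genes. In *EμMyc/Casp2-/-* against *Th-MYCN/Casp2-/-* tumors, a comparison that shares no tumor with the first, 4 members were called higher and 1 lower, against 20.5% and 27.6% of all genes (48.0% in either direction), and the QLF test called the same number of members, 5, and 46.4% of all genes. Of these calls, those of *Igf2bp2* and *Lin28b* are descriptions, since the lymphomas brought the first over the filter and the neuroblastomas the second. Among the other tested members, *Hmga1*, *Igf2bp3* and *Arid3b* were called higher in both comparisons. The share of all genes called in the same direction in both was not computed, so these repeated calls are a description too. Groups did not overlap for 1 higher and 2 lower members in the first comparison, where 26.4% of all genes lay entirely higher and 32.9% entirely lower, and for 4 higher and 2 lower members in the second, against 23.6% and 31.2%. The 1 higher member of the first comparison was *Igf2bp2*, which is also 1 of the 4 in the second. *Lin28b* is 1 of the 2 lower members in each, and for both genes this too is a description. These are bulk tumors, in which fewer cells of a type and less RNA per cell cannot be told apart.

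*Lin28b* (chr10:45376620-45486395, minus strand) separated the tumor types except in 1 lymphoma. It had 67.9, 40.2, 44.0 and 45.1 CPM in *Th-MYCN* tumors MYCN175, MYCN235, MYCN332 and MYCN391, from 554 to 1111 reads. *Th-MYCN/Casp2-/-* tumors MYCNC2ko118, MYCNC2ko144, MYCNC2ko176 and MYCNC2ko180 had 60.9, 54.2, 36.3 and 25.5 CPM. Every neuroblastoma held at least 314 reads. Of the *EμMyc* tumors, EuMyc614 had 3 reads, EuMyc743b 0 and EuMyc835 1, while EuMyc829 had 500 reads, or 39.4 CPM. EuMycC2ko215, EuMycC2ko239 and EuMycC2ko245 had 0, 2 and 20 reads, the last at 2.02 CPM. All lymphomas lay below all neuroblastomas of the same genotype, although EuMyc829 missed the lowest *Th-MYCN* tumor, at 40.2 CPM, by little and lay above 2 of the 4 *Th-MYCN/Casp2-/-* tumors.

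The fitted log2 fold change of *Lin28b* was -2.31 (SE 1.34, LRT FDR 0.142, QLF FDR 0.121) between *EμMyc* and *Th-MYCN* tumors, which did not pass the test. Without EuMyc829 it was -8.53 (SE 0.909, LRT FDR 1.23e-20), so that 1 tumor decided the call. In the null tumors of both types it was -5.88 (SE 1.48, LRT FDR 0.00398, QLF FDR 0.0107), and it stayed called with each of these 7 tumors left out, at -8.68 to -5.27. These values of *Lin28b* are a description, since the neuroblastomas brought it over the filter. None of the 50-base windows of its transcripts occurs in another annotated gene, and its reads were split evenly over both strands, with 50.8% on the first.

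*Lin28a*, which blocks let-7 by the same binding, was close to absent. It had 24 reads over all tumors, of which 15 (1.28 CPM) were in EuMyc743b and 0 to 2 in each other tumor. *Lin28a* means were 0.340 ± 0.630 CPM (SD, n = 4) in *EμMyc*, 0.0615 ± 0.0540 (n = 3) in *EμMyc/Casp2-/-*, 0.0670 ± 0.0597 (n = 4) in *Th-MYCN* and 0.0341 ± 0.0395 (n = 4) in *Th-MYCN/Casp2-/-* tumors. The 2-sided exact permutation test gave p from 0.486 to 0.971 in the 4 comparisons, where the design allows no p under 0.0286.

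*Dis3l2* (chr1:86703808-87050095, plus strand), the exonuclease of uridylated let-7 precursors, had the smallest ratio of highest to lowest tumor of the 6 tested members, 1.81 in lymphomas and 1.41 in neuroblastomas, and lay higher in neuroblastoma. It had 36.5, 35.2, 50.9 and 28.5 CPM in EuMyc614, EuMyc743b, EuMyc829 and EuMyc835, and 76.6, 60.1, 61.4 and 57.7 CPM in MYCN175, MYCN235, MYCN332 and MYCN391. *EμMyc/Casp2-/-* tumors had 41.6, 34.2 and 51.4 CPM and *Th-MYCN/Casp2-/-* tumors 67.2, 70.9, 56.0 and 79.0 CPM. The tumor types did not overlap in either genotype. The log2 fold change was -0.76 (SE 0.22, LRT FDR 0.00142, QLF FDR 0.00408) with *Casp2* intact and -0.69 (SE 0.24, LRT FDR 0.00937, QLF FDR 0.0139) without it, below the FDR threshold but under a 2-fold change, so it was not called.

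*Igf2bp3* (chr6:49085223-49214957, minus strand), a stabilizer of fetal and oncogenic mRNAs, was higher in lymphoma and varied widely among lymphomas. EuMyc614, EuMyc743b, EuMyc829 and EuMyc835 had 52.4, 29.7, 79.8 and 10.5 CPM, a range of 7.60-fold. MYCN175, MYCN235, MYCN332 and MYCN391 had 5.13, 3.70, 23.3 and 9.39 CPM. MYCN332 lay above the lowest *EμMyc* tumor and the other *Th-MYCN* tumors below it. *EμMyc/Casp2-/-* tumors had 25.6, 33.1 and 69.6 CPM, all far above the *Th-MYCN/Casp2-/-* tumors at 3.17, 3.92, 2.99 and 4.39 CPM. The log2 fold change was 2.05 (SE 0.59, LRT FDR 0.00163, QLF FDR 0.00826) with *Casp2* intact and 3.56 (SE 0.64, LRT FDR 4.77e-07, QLF FDR 0.000332) in the null tumors. Its last exon overlaps the gene *Malsu1*, listed as *2410003K15Rik*, by 1529 bases on the opposite strand. That gene had 13.4 to 39.9 CPM in lymphomas and 14.9 to 26.8 CPM in neuroblastomas, ranges that overlapped. It shares 18.1% of the 50-base windows of *Igf2bp3*. The part of its reads in the *Igf2bp3* counts, which were low in most neuroblastomas, was not tested. On either-strand counts the change of *Igf2bp3* with *Casp2* intact was 2.02 (LRT FDR 0.00244).

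*Igf2bp2* (chr16:22059009-22163299, minus strand), a relative that is also expressed in adult tissue, was low everywhere. EuMyc614, EuMyc743b, EuMyc829 and EuMyc835 had 1.40, 1.71, 0.945 and 0.849 CPM, and the *EμMyc/Casp2-/-* tumors 1.17, 1.09 and 0.808 CPM. The *Th-MYCN* tumors had 0.122, 0, 0.519 and 0.124 CPM and the *Th-MYCN/Casp2-/-* tumors 0.0720, 0.129, 0.0964 and 0.0812 CPM. The tumor types did not overlap, but the counts were 6 to 20 reads against 0 to 9. As a description, since *Igf2bp2* entered the fit through the lymphomas, the log2 fold change was 2.57 (SE 0.67, LRT FDR 0.000164, QLF FDR 0.00465) with *Casp2* intact and 3.28 (SE 0.89, LRT FDR 9.79e-05, QLF FDR 0.00282) in the null tumors. *Igf2bp1*, the family member most tied to fetal tissue, was not detectable at this depth, with 1 read each in MYCN235 and MYCNC2ko144 and 0 in the other 13 tumors (exact permutation p = 1 in each of the 4 comparisons).

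*Hmga1* (chr17:27556497-27563674, plus strand), which bends AT-rich DNA and is abundant in dividing cells, was higher in lymphoma. It had 7.09, 9.67, 10.5 and 3.19 CPM in EuMyc614, EuMyc743b, EuMyc829 and EuMyc835 and 1.83, 2.03, 3.81 and 1.85 CPM in MYCN175, MYCN235, MYCN332 and MYCN391. EuMyc835 and MYCN332 overlapped. The *EμMyc/Casp2-/-* tumors were close to each other at 4.69, 4.84 and 4.85 CPM, above the *Th-MYCN/Casp2-/-* tumors at 1.94, 0.707, 0.386 and 1.14 CPM. The log2 fold change was 1.67 (SE 0.49, LRT FDR 0.00175, QLF FDR 0.00841) and 2.18 (SE 0.56, LRT FDR 0.000247, QLF FDR 0.00277). With age at onset as a covariate the second was 1.16 (LRT FDR 0.0840) and no longer called. The null lymphomas and neuroblastomas share no age at onset, so this fit relies on the same age trend assumed for all groups. The level of *Hmga1* is uncertain, since 55.0% of its 50-base windows also occur in the near-identical copy *Hmga1b*. Of its strand-specific reads 70.9% were on the first strand, and *AI413582* overlaps it on the opposite strand by 102 bases; their part in the result was not tested.

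*Hmga2*, the member of the pair most often named as the let-7 target of embryonic tissue, had 0 reads in all 7 lymphomas and 7 reads in all neuroblastomas together, 4 of them in MYCNC2ko144. The means of 0.0490 ± 0.0603 CPM (SD, n = 4) in *Th-MYCN* and 0.0643 ± 0.129 (n = 4) in *Th-MYCN/Casp2-/-* tumors lay under the level of 3 reads (exact permutation p from 0.429 to 1 in the 4 comparisons).

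*Arid3b* (chr9:57790353-57836793, minus strand), a transcription factor related to the B cell factor ARID3A, was higher in lymphoma on average and varied widely among *EμMyc* tumors. EuMyc614, EuMyc743b, EuMyc829 and EuMyc835 had 19.6, 8.47, 46.6 and 81.1 CPM, and the *EμMyc/Casp2-/-* tumors 19.5, 54.6 and 44.3 CPM. The neuroblastomas were narrow, with 20.5, 13.9, 15.6 and 10.6 CPM in *Th-MYCN* and 12.3, 12.5, 14.5 and 17.1 CPM in *Th-MYCN/Casp2-/-* tumors. EuMyc743b lay below every neuroblastoma and EuMyc614 below MYCN175. The log2 fold change was 1.36 (SE 0.51, LRT FDR 0.0167, QLF FDR 0.0318) with *Casp2* intact and 1.49 (SE 0.56, LRT FDR 0.0139, QLF FDR 0.0286) without it. The first call was lost without EuMyc835 (0.72, LRT FDR 0.189) and without MYCN391 (1.22, LRT FDR 0.0605), and the second without EuMycC2ko239 (1.24, LRT FDR 0.0724).

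**Figure D3:**
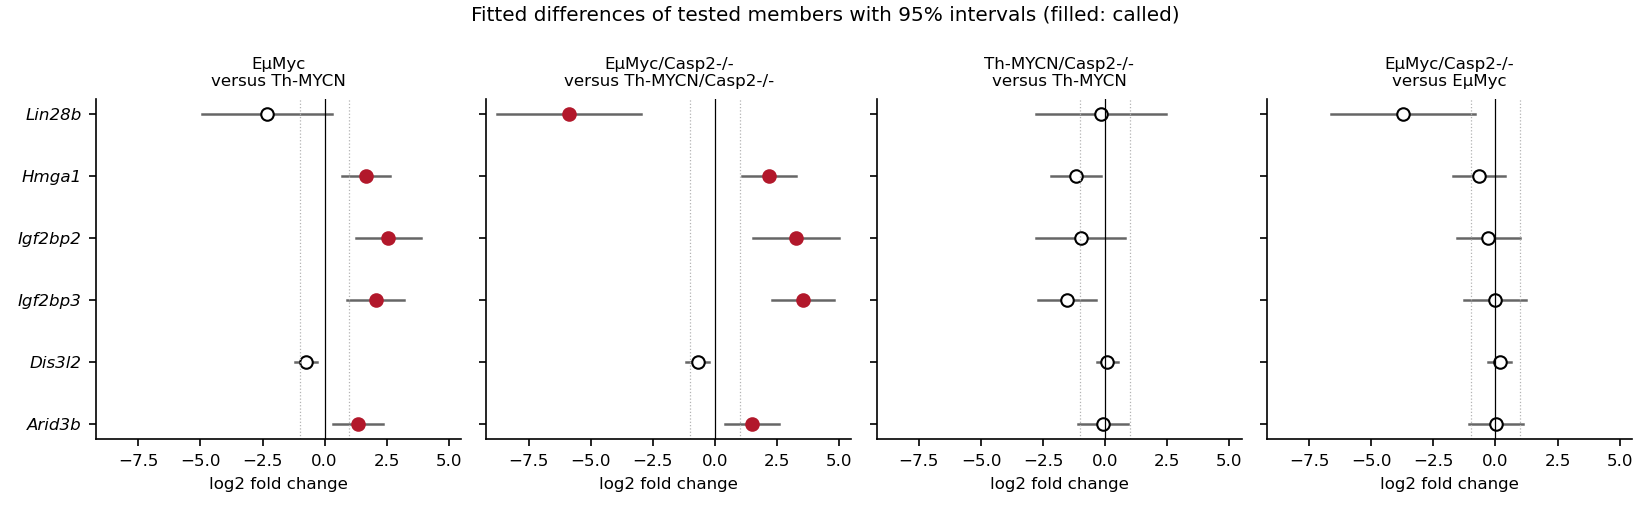
Fitted log2 fold change of the 6 tested members in 4 comparisons, with 95% intervals as lines, filled points for called members and dotted lines at -1 and 1. *Lin28b* has the widest interval in each of the 4 panels, and no point is filled in the 2 comparisons of genotypes.

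The study's own question was what loss of *Casp2* does within each tumor type, and no member was called for it. In the neuroblastomas without against those with *Casp2*, 0 of 6 tested members were called by the LRT, the QLF test or DESeq2, which called 0.813%, 0.0336% and 0.780% of all genes, and 2 members had an unadjusted LRT p under 0.05. These were *Igf2bp3*, with a log2 fold change of -1.52 (95% interval -2.69 to -0.35, LRT FDR 0.338, QLF FDR 0.618), and *Hmga1*, with -1.17 (95% interval -2.20 to -0.15, LRT FDR 0.481, QLF FDR 0.661). *Igf2bp3* was 10.4 ± 8.95 CPM (SD, n = 4) in *Th-MYCN* and 3.62 ± 0.653 (n = 4) in *Th-MYCN/Casp2-/-* tumors, and without MYCN332 the log2 fold change was -0.75. *Hmga1* was 2.38 ± 0.956 and 1.04 ± 0.675 CPM, and the groups overlapped through MYCNC2ko118. The intervals of *Dis3l2* (-0.34 to 0.52) and *Arid3b* (-1.11 to 0.91) were narrow enough to leave out, respectively, 2-fold changes in either direction and an increase of 2-fold. That of *Lin28b* (-2.78 to 2.46) was wide. *Igf2bp2* had -0.98 (-2.77 to 0.80).

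In *EμMyc/Casp2-/-* against *EμMyc* tumors 0 of 6 members were called by the LRT, the QLF test or DESeq2, against 1.44%, 0.141% and 1.36% of all genes, and 1 had an unadjusted LRT p under 0.05. This was *Lin28b*, with -3.73 (95% interval -6.64 to -0.82, LRT FDR 0.386, QLF FDR 0.571). Its difference rested on EuMyc829: without that tumor it was 2.57 (LRT FDR 0.148), in the other direction. *Dis3l2* had 0.16 (interval -0.31 to 0.64), *Igf2bp3* -0.01 (-1.25 to 1.23), *Arid3b* 0.02 (-1.06 to 1.11), *Igf2bp2* -0.28 (-1.53 to 0.97) and *Hmga1* -0.67 (-1.71 to 0.37). The difference of the genotype effect between tumor types, lymphoma minus neuroblastoma, was called for 0 of 6 members by the LRT, the QLF test or DESeq2, against 0.914%, 0.0538% and 0.827% of all genes, and for 0 members the unadjusted LRT p was under 0.05. The nearest was *Igf2bp3*, at 1.51 (interval -0.19 to 3.21, LRT FDR 0.652, QLF FDR 0.753). No member's groups were free of overlap in either comparison of genotypes, where of all genes 2.94% (higher) and 3.68% (lower) were free of it among neuroblastomas and 1.75% (higher) and 1.96% (lower) among lymphomas.

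Other genes of the pathway were read from lists of known let-7 processing factors, further let-7 targets, mRNAs bound by IGF2BP proteins and further oncofetal genes. Of 23 tested genes of let-7 biogenesis and turnover, 2 were higher and 4 lower in *EμMyc* than in *Th-MYCN* tumors. Of all genes 18.9% were higher and 28.5% lower, so the list was not called more often than all genes. Its median log2 fold change of 0.06 was near that of all genes, -0.04. In the null tumors 2 were higher and 3 lower, against 20.5% and 27.6% of all genes, with a median of -0.26 against -0.05. In both comparisons 5 genes were called in the same direction, a count without its share over all genes. *Msi1* is an RNA binding protein of neural progenitors known to act on let-7 with LIN28. It was 102.7 to 114 CPM in *Th-MYCN* and 98.7 to 118 CPM in *Th-MYCN/Casp2-/-* tumors but 0 to 0.391 CPM in all lymphomas (LRT FDR 3.49e-171, QLF FDR 1.83e-10). These values of *Msi1* are a description, since the neuroblastomas brought it over the filter. *Prkra*, a partner of Dicer, was lower in *EμMyc* tumors by -3.62 (LRT FDR 2.09e-26). Higher were *Trim25*, a cofactor of the tailing of let-7 precursors, by 4.73 (LRT FDR 4.12e-31) and *Zc3h12a*, an endonuclease that cuts microRNA precursors, by 3.01 (LRT FDR 2.88e-11). The remaining genes called between these groups were *Drosha* (-1.18, LRT FDR 1.31e-07) and *Hnrnpa1* (-1.53, LRT FDR 7.74e-07), both lower in *EμMyc* tumors. Of these, *Hnrnpa1* but not *Drosha* was called in the null tumors as well. The genes on the list for the tailing enzymes and for Dicer and the Argonautes were not among those called.

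Of 25 tested further let-7 targets, 7 were higher and 11 lower in *EμMyc* than in *Th-MYCN* tumors, with a median of -1.07. Of all genes 18.9% were higher and 28.5% lower. In the null tumors 8 targets were higher and 10 lower, with a median of -0.98, against 20.5% and 27.6% of all genes. The same direction was called in both for 16 of the targets, again a count without its share over all genes. The 4 with the smallest FDR were *Mycn* (-10.01, LRT FDR 1.41e-101) and *Myc* (7.44, LRT FDR 3.09e-46), of which the first counts reads on the mouse gene and was not shown to hold or leave out the transgene, the cell cycle gene *Ccnd1* (-2.59, LRT FDR 8.18e-33) and *Plagl1*, an imprinted zinc finger factor (-8.17, LRT FDR 7.12e-28). *Myc* is the gene that the *EμMyc* transgene expresses, so its direction was set by the choice of tumors. The called targets lay in both directions. *Trim71*, a ubiquitin ligase of the early embryo, had 0 CPM in all lymphomas and up to 9.29 CPM in MYCN332. The neuroblastomas brought *Mycn*, *Plagl1* and *Trim71* over the filter. Their calls, which are among the lower targets counted above, are therefore descriptions.

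Of 8 IGF2BP-bound mRNAs, 4 were higher and 1 lower in *EμMyc* than in *Th-MYCN* tumors, the median being 1.04 (18.9% and 28.5% of all genes). In the null tumors 4 were higher and 0 lower (20.5% and 27.6% of all genes). The QLF test called 4 and 0 of the 8 in both. *Myc* and the adhesion receptor gene *Cd44* (3.50, LRT FDR 1.65e-24) were among those higher in both comparisons of tumor types. The direction of *Myc*, the gene of the *EμMyc* transgene, was set by the choice of tumors. Of 4 tested oncofetal genes of other families, 3 were lower and 0 higher in *EμMyc* tumors (28.5% and 18.9% of all genes). In the null tumors 2 were lower (27.6% of all genes). Lower in *EμMyc* tumors was *Igdcc3*, at 0 to 0.0875 CPM against 3.52 to 6.12 CPM in *Th-MYCN* tumors. So were *Dlk1*, which marks neuroblast precursors (-6.93, LRT FDR 1.72e-10), and the glypican *Gpc3* (-3.34, LRT FDR 0.000384). The neuroblastomas brought *Igdcc3* over the filter, so its calls, which are among those counted, are descriptions. For loss of *Casp2* no gene of these lists was called in the neuroblastomas. An unadjusted LRT p under 0.05 was found there for 3 of the 4 other oncofetal genes (smallest LRT FDR 0.148). It was found for 2 of 8 IGF2BP-bound mRNAs, 1 of 23 biogenesis genes and 0 of 25 further targets, against 1157 of all 14880 genes. In the lymphomas the LRT called *H19*, an imprinted fetal RNA, at 7.23 (SE 1.30, LRT FDR 0.00170, QLF FDR 0.127), and the interaction for it too at 10.52 (LRT FDR 0.000281, QLF FDR 0.135). *H19* was 678 CPM in EuMycC2ko215, 71.7 in EuMycC2ko239 and 0.909 in EuMycC2ko245, against 0.709 to 3.15 CPM in *EμMyc* tumors. Without EuMycC2ko215, the tumor with the most T cell marker mRNA and left out after its value was seen, it was 4.45 (LRT FDR 0.168) and not called, while the interaction stayed called at 7.74 (LRT FDR 0.0173). The part of T cells in it was not tested.

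**Figure D4:**
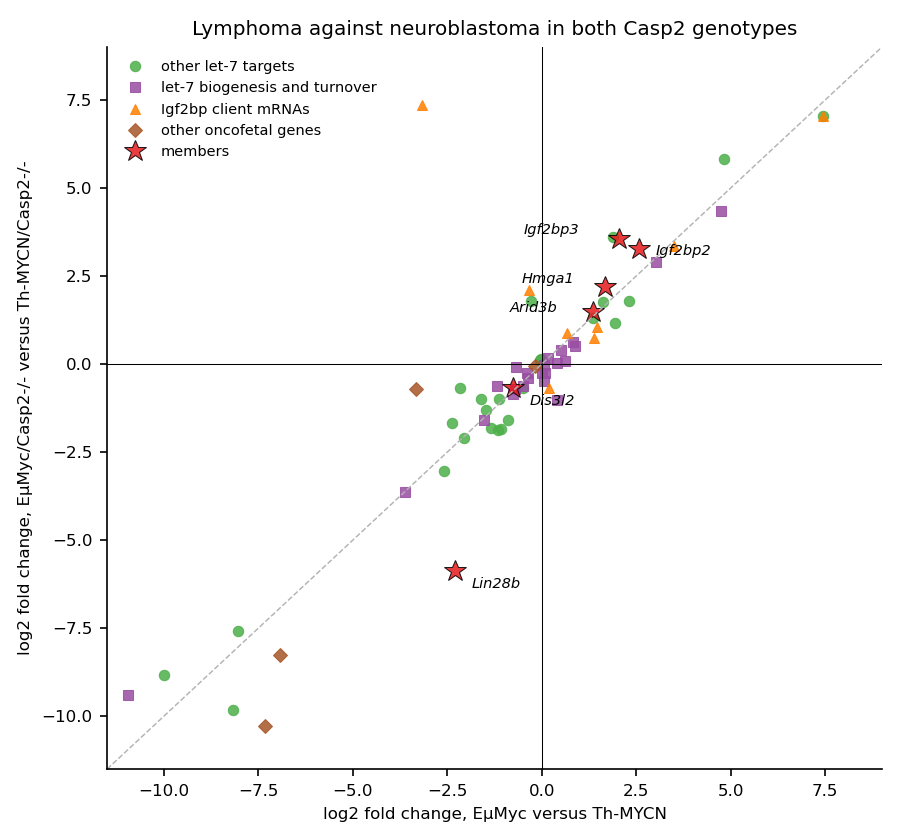
Log2 fold change of lymphoma over neuroblastoma with *Casp2* intact (horizontal axis) and without it (vertical axis) for the 6 tested members (stars) and the tested genes of the 4 lists, with a dashed line of equal change. The 2 comparisons share no tumor; *Lin28b* lies below the line, at -2.31 and -5.88, the far negative points include *Trim71* and *Igdcc3*, whose size depends on lymphomas at or near 0 reads, and the triangle at upper left is *H19*.

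Members could also be compared among tumors of 1 type. In the lymphomas EuMyc829 had the highest level of 3 of the 6 tested members (*Lin28b*, *Hmga1* and *Igf2bp3*), and in the neuroblastomas MYCN332, the tumor of earliest onset at 10 weeks, had the highest level of 3 (*Hmga1*, *Igf2bp2* and *Igf2bp3*). Over 30 correlations of log2 CPM between pairs of members, 15 in each tumor type, 3 had an unadjusted p under 0.05 and 0 passed after Benjamini-Hochberg adjustment. In 8 neuroblastomas *Igf2bp2* and *Igf2bp3* had Pearson's r = 0.85 (permutation p = 0.0196, adjusted p = 0.196) and Spearman's rho = 0.67 (permutation p = 0.0831, adjusted p = 0.529), with r = 0.56 without MYCN235 and MYCN332. *Igf2bp3* and *Dis3l2* had r = 0.85 (permutation p = 0.0169, adjusted p = 0.196) and rho = 0.71 (permutation p = 0.0881, adjusted p = 0.529) in 7 lymphomas, with r = 0.58 without EuMyc829 and EuMyc835. In 7 lymphomas *Igf2bp2* and *Arid3b* had r = -0.90 (permutation p = 0.00694, adjusted p = 0.196) and rho = -0.71 (permutation p = 0.0881, adjusted p = 0.529), with r = -0.88 without EuMyc743b and EuMycC2ko245. *Lin28b* and *Igf2bp3* had r = 0.70 (permutation p = 0.0817, adjusted p = 0.409) and rho = 0.89 (permutation p = 0.0123, adjusted p = 0.369) in the lymphomas and r = 0.01 (permutation p = 0.980, adjusted p = 0.980) and rho = 0.17 (permutation p = 0.703, adjusted p = 0.879) in the neuroblastomas. The first r fell to 0.32 without EuMyc829 and EuMycC2ko245, so it rested on those tumors.

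Age at onset was compared with the 6 tested members over the 8 neuroblastomas. For *Hmga1* the rank correlation passed the adjustment over the 6 members and Pearson's r did not, with r = -0.80 (permutation p = 0.0189, adjusted p = 0.113) and rho = -0.88 (permutation p = 0.00685, adjusted p = 0.0411), and r = -0.93 without the 2 tumors farthest from the median onset. *Hmga1* had only 4 to 66 reads in these tumors and its level is uncertain, as given above. Its rho was not checked with other counts. Genotype moves with onset here, since the *Th-MYCN/Casp2-/-* tumors arose at 15 to 24 weeks, and 4 tumors per genotype are too few for a test. Within each genotype, as a description, r was -0.75 in *Th-MYCN* and -0.91 in *Th-MYCN/Casp2-/-* tumors. *Igf2bp3* had r = -0.60 (permutation p = 0.121, adjusted p = 0.364) and rho = -0.44 (permutation p = 0.288, adjusted p = 0.863), and the other members had r between -0.31 and 0.22.

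**Figure D5:**
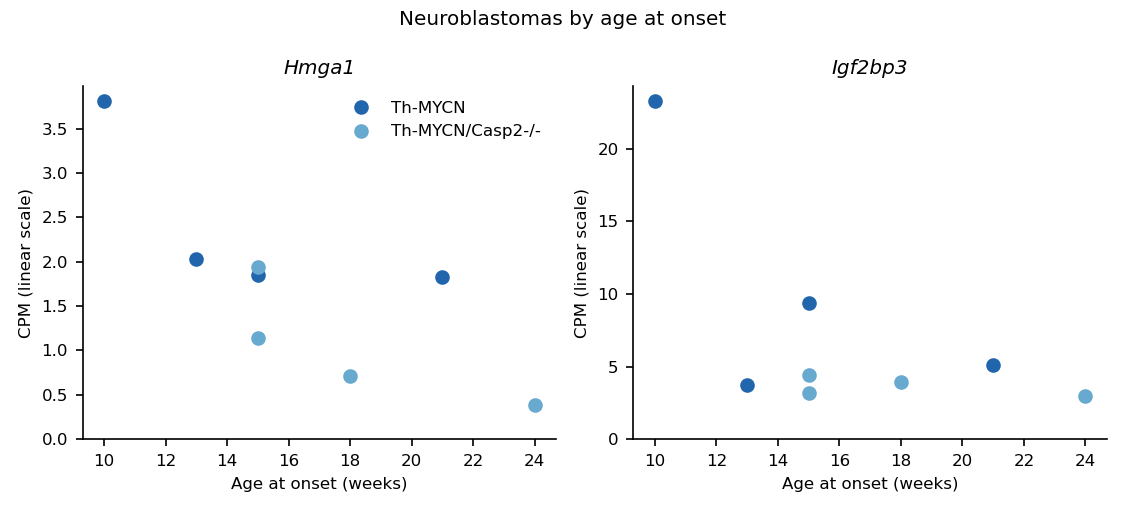
*Hmga1* and *Igf2bp3* in CPM (linear axes from 0) against age at onset in weeks in the 8 neuroblastomas, colored by genotype. MYCN332, with onset at 10 weeks, is highest in both panels, and MYCNC2ko176 is lowest in both.

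The genes whose log2 CPM, less its group mean, followed each member most closely over the 15 tumors are given as a description, since genes were ranked by this value. For *Lin28b* they were *Morf4l2* (r = 0.95), *Tsn* (0.93) and *D430019H16Rik* (0.93). In EuMyc829 they had 286, 348 and 10.2 CPM, against at most 209, 254 and 8.88 CPM in the other lymphomas. *Lin28b* stood far apart in that tumor, and its r without EuMyc829 was not computed. For *Igf2bp3* they were *Bdh1* (0.86), *Dnajc12* (0.80) and *Amdhd1* (0.79), and for *Hmga1* *Ankrd13b* (0.87), *Dnahc10* (0.86) and *2510006D16Rik* (0.83). *Dis3l2* was followed by *Hexdc*, *Srgap2* and *Add2* (each 0.89), *Arid3b* by *Pdk3* (0.91), *Rtkn2* (0.90) and *Pde4dip* (0.88), and *Igf2bp2* by *Nudt19* (0.92), *Phf15* (0.87) and *Kcnn4* (0.81). No member was among the 3 genes most alike to another.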

How the data were processed

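Reads per gene were analysed for 15 tumors, 1 library per mouse, grouped by the authors' labels. From poly(A) RNA the authors made single-end 50-base reads, used FastQC for quality and STAR for alignment to mm10/GRCm38, and deposited raw counts per gene, on either strand and on each strand. Tool versions and the annotation release are not given in the sources used here. Column 4, the second-strand count, was used, which holds about as many reads as the first-strand column. Rows naming no gene (66.4% to 71.8% of that column) were left out.

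The 14880 genes that exceeded 1 CPM in 3 or more tumors were fitted in edgeR 4.0.16 (R 4.3.3, limma 3.58.1) with TMM scaling and 1 model of 4 group means. The likelihood ratio test was the main test, since the paper's tables give likelihood ratios, with a Benjamini-Hochberg FDR under 0.05 over all genes and a log2 fold change beyond 1 in either direction. The quasi-likelihood test and DESeq2 1.42.0 were alternatives, as were 2 other scalings, 2 other filters, the other counts, only the groups compared, age at onset as a covariate and leaving out each tumor. The scripts were tested on simulated data. CPM is scaled by TMM, and log2 CPM has a prior count of 2. Members under the filter were compared by 2-sided exact permutation tests of mean CPM, and permutation tests of correlations were exact and 2-sided. Positions, exon lengths and 3′ UTRs came from GENCODE vM21 by symbol, microRNAs from RefSeq. Pairs of libraries of a group had a chi-square divided by its degrees of freedom of 16.2 to 76.0, so none is a copy. P-values measure the spread between these tumors.

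The members and lists were chosen with earlier results of these data known. All 9 members are named in every comparison, with at most 4 called genes of each list by smallest FDR between tumor types (1 of these is not reported here), every list gene called for loss of *Casp2*, and the 3 genes most alike to each member with a group mean of at least 1 CPM. *Drosha* and *Hnrnpa1* are named beyond this rule. *Trim71* and the markers of tumor EuMycC2ko215 were looked up after values were seen. A further *EμMyc/Casp2-/-* tumor that the paper removed is not analysed here.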

Additional observations from a re-analysis of the deposited data

Results flagged for a closer look

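In the groups of 4 tumors, 6 values of the members stood far from the other 3 of their group, by a gap to the next tumor beyond Dixon's 95% critical value for 4 samples. Chance flags about 1 in 20 groups of normally distributed values, and 25 groups had any spread. That rate does not hold for groups near 0 reads, and a group with reads in 1 tumor only is always flagged. In *EμMyc* tumors these were *Lin28b* at 39.4 CPM in EuMyc829, next to 0.262 CPM in the second highest tumor, and *Lin28a* at 1.28 CPM in EuMyc743b, next to 0.0787 CPM. In *Th-MYCN* tumors *Hmga1* stood out at 3.81 CPM in MYCN332, next to 2.03 CPM. The other 3 are of that kind and rest on 1 to 4 reads: *Hmga2* at 0.257 CPM and *Igf2bp1* at 0.0643 CPM in MYCNC2ko144, and *Igf2bp1* at 0.0726 CPM in MYCN235, with 0 CPM in the next tumor of each group. No member had a genotype effect that was called as different between the tumor types.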

How the results depend on the processing

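For the 6 tested members in 5 comparisons, 280 of 290 fits under other settings and 242 of 270 fits without 1 tumor kept the direction and the side of the threshold. The number of called members was 3 with only the groups compared, where *Igf2bp2* no longer passed the filter, and 4 under each other setting for *EμMyc* against *Th-MYCN*, and 4 to 5 in the null tumors. Without 1 tumor it was 3 to 5 and 4 to 5. It was 0 under every alternative run for loss of *Casp2* and the interaction. Upper quartile scaling shifted the median of all genes by 0.11 between the null tumor types, and changed no call of a member there. The correlations, the onset relations by Pearson's r and the tests of members under the filter stayed at 0 passing on either-strand counts and without TMM scaling. The number of all genes called moved more. For loss of *Casp2* in neuroblastomas it was 121 by the LRT, 5 by the QLF test, 66 with age at onset, 277 with only the groups compared and 30 to 187 without 1 tumor. In lymphomas it was 215, 21, 109, 35 and 75 to 546, the 75 without EuMycC2ko215 and the 546 without EuMycC2ko245. For the interaction it was 136, 8 and 65, and 55 to 319 without 1 tumor.

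Reversals were of uncalled values. For loss of *Casp2* in neuroblastomas *Igf2bp2* was 0.30 with other-strand counts, and without 1 tumor *Igf2bp2* ranged from -1.34 to 0.15, *Lin28b* from -0.34 to 0.049 and *Arid3b* from -0.24 to 0.089. In *EμMyc/Casp2-/-* against *EμMyc* tumors *Igf2bp3* was 0.023 with DESeq2 and with RLE scaling, 0.020 with other-strand counts and 0.037 with upper quartile scaling. Without 1 tumor the ranges there were -0.56 to 0.46 for *Igf2bp3*, -6.50 to 2.57 for *Lin28b*, -0.0060 to 0.34 for *Dis3l2* and -0.31 to 0.67 for *Arid3b*. In the interaction *Hmga1* was -0.43 and *Igf2bp2* -0.31 with age at onset, and *Igf2bp2* -0.10 on either strand and -0.52 on the other strand. Without 1 tumor it ranged from -6.36 to 2.71 for *Lin28b*, -0.43 to 1.05 for *Igf2bp2*, -0.11 to 0.23 for *Dis3l2* and -0.21 to 0.77 for *Arid3b*. The cause was not tested.

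No paired analysis was possible because the labels give no replicate numbers that groups share. Depth limits *Lin28a*, *Hmga2*, *Igf2bp1* and *Igf2bp2*, and 4 or 3 tumors per group limit the rest.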

Other observations

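Since *Lin28b* was high in 1 lymphoma, its neighbours within 1000 kilobases were read in that tumor, a choice made after its value was seen. Of 6 such genes, 5 passed the filter. *Hace1*, a ubiquitin ligase gene 91.4 kilobases away, had 33.7 CPM in EuMyc829 against 8.01 to 23.3 CPM in the other 6 lymphomas and 26.8 to 36.8 CPM in the neuroblastomas. *Bves*, 4.1 kilobases away, had 0.157 CPM in EuMyc829 and 0 to 0.195 CPM in the other lymphomas, and *Popdc3* had 0 CPM there. *Prep* had 171 CPM in EuMyc829, within the 110.1 to 289 CPM of the other lymphomas, and *Prdm1* had 1.65 CPM, within 0.525 to 3.03 CPM.

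MYCN332 had the highest *Hmga1*, *Igf2bp2*, *Igf2bp3* and *Trim71* of the 8 neuroblastomas, while its *Lin28b*, at 44.0 CPM, lay in the middle of their range of 25.5 to 67.9 CPM and *Hmga2* had 0 reads.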
